A study of Mus musculus with 10 samples.

Results

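The genes described here are 10 genes that mark monocytes and neutrophils, read in RNA from brain microglia preparations. They were listed by symbol as 4 monocyte genes (Ly6c2, Ccr2, Plac8 and S100a4) and 6 neutrophil genes (S100a8, S100a9, Lcn2, Ngp, Camp and Retnlg). All 10 were matched to an NCBI gene identifier, and all 10 were among the 28419 of 46152 counted genes that passed the filter on low counts, which asked for a CPM (counts scaled to the size of the library) above 1 in at least 3 libraries.

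Each of the 10 libraries came from 1 brain of a perfused C57BL/6J mouse aged 8 to 12 weeks. All 10 mice received 0.1% Tween 80 with 0.5% Hydroxymethyl Propyl-cellulose by mouth, given by gavage over 8 days. The 5 Vehicle mice received it alone. The 5 GW2580 mice received in it 80 mg/kg/d of GW2580, an inhibitor of the colony stimulating factor 1 receptor kinase. Libraries 1 and 2 of each group were from male mice, and libraries 3 to 5 from female mice. The cells were enriched on a Percoll gradient and by magnetic selection for CD11b, a surface integrin that microglia share with monocytes and neutrophils. The selection itself therefore does not separate these cell types. By flow cytometry the paper typed nearly all enriched cells as microglia and most of the contaminating cells as monocytes or granulocytes.

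Microglia are the resident macrophages of the brain. Classical monocytes and neutrophils are short-lived myeloid cells made in bone marrow, and in a healthy brain they are found mostly in vessels, meninges and choroid plexus rather than in the tissue. Neutrophils fill their granules in sequence as they mature, the primary granules with Mpo and Elane, the secondary granules with Lcn2, Camp, Ngp and Ltf, while S100a8 and S100a9 form the main protein of the cytosol. In bulk RNA, fewer cells of a type and less RNA per cell cannot be told apart.

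The libraries held between 12550418 and 26079343 fragments assigned to genes. Microglia genes were high throughout: the summed level of 10 microglia genes, Tmem119, P2ry12 and Cx3cr1 among them, was 9601 to 20063 CPM in the Vehicle libraries and 13960 to 44344 CPM in the GW2580 libraries. Vehicle 2 and Vehicle 5 stood apart by other markers, with the highest sum of 7 oligodendrocyte genes (Vehicle 2, 14991 CPM) and the highest sums of the T cell, B cell, NK cell, erythroid and astrocyte lists (Vehicle 5). The mean log2 CPM of 69 ribosomal protein genes also differed widely, from 5.27 to 6.71 with Vehicle and from 3.55 to 7.13 with GW2580, and its part in the results below was not tested.

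The neutrophil genes were far more abundant than the monocyte genes. CPM was scaled with TMM factors (trimmed mean of M-values) throughout, and was divided by exon length in kilobases to compare genes. On this scale the levels of the 6 neutrophil genes summed to 44105, 11073, 4974, 3945 and 444 CPM per kb in Vehicle 1 to Vehicle 5, and to 4181, 14950, 668, 918 and 10726 CPM per kb in GW2580 1 to GW2580 5. The 4 monocyte genes summed to 502, 144, 116, 86.7 and 91.6 CPM per kb with Vehicle and to 67.6, 180, 25.0, 21.8 and 91.2 CPM per kb with GW2580. The neutrophil sum was therefore 4.85-fold (Vehicle 5) to 118-fold (GW2580 5) the monocyte sum of the same library. The monocyte sum rested largely on Ly6c2, the highest monocyte gene in 9 of 10 libraries (405 of 502 CPM per kb in Vehicle 1). In GW2580 5 Ly6c2 was at 33.4 CPM per kb and S100a4 at 48.2 CPM per kb. Every neutrophil gene lay above every monocyte gene per kb in 9 of 10 libraries, the exception being Vehicle 5.

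**Figure D1:**
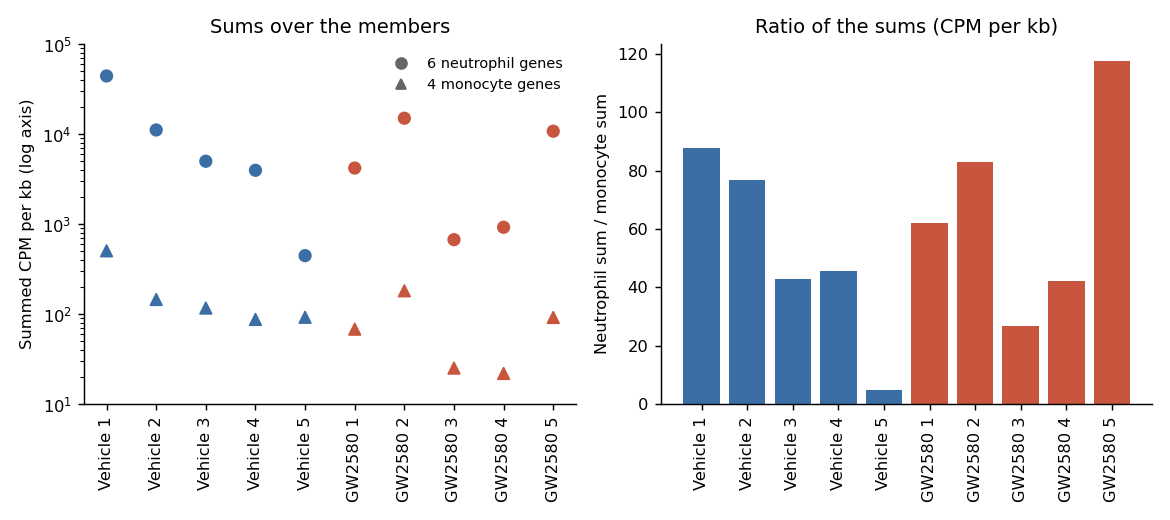
Left, summed CPM per kb (log axis) of the 6 neutrophil genes (circles) and the 4 monocyte genes (triangles) in each library, Vehicle in blue and GW2580 in red. Right, the ratio of the sums in the same libraries. The neutrophil sum runs from 444 to 44105 CPM per kb, the monocyte sum from 21.8 to 502 CPM per kb, and the groups overlap in both.

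As a share of all assigned fragments, the neutrophil genes took 0.793 ± 1.07% (SD, n = 5) in the Vehicle libraries against 0.468 ± 0.438% (SD, n = 5) in the GW2580 libraries, with a range from 0.0311% in Vehicle 5 to 2.66% in Vehicle 1. The monocyte genes took 0.0219 ± 0.0209% and 0.0108 ± 0.00677% (SD, n = 5 each). Set against Tmem119, a microglia gene, in CPM per kb, the neutrophil sum was 0.404 to 35.9 times the level of Tmem119 with Vehicle and 0.133 to 7.79 times with GW2580. The monocyte sum was 5.02 to 40.8% of Tmem119 with Vehicle and 0.495 to 7.61% with GW2580. Tmem119 itself was at 1406 ± 272 CPM per kb with Vehicle and 2400 ± 1524 CPM per kb with GW2580 (SD, n = 5 each). It was highest in GW2580 3 (5041 CPM per kb), the library at the low end of both GW2580 ranges, so these ratios also reflect the level of Tmem119.

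Ordered by geometric mean over the 10 libraries, the levels in CPM per kb were 1097 for Ngp, 977 for S100a9, 806 for S100a8, 401 for Camp, 341 for Lcn2, 339 for Retnlg, 60.5 for Ly6c2, 10.7 for S100a4, 6.10 for Plac8 and 5.01 for Ccr2. Ngp and S100a9 did not differ beyond their spread, with a mean log2 ratio of 0.17 ± 1.23 (SD, n = 10), and neither did Camp and Lcn2, Lcn2 and Retnlg, S100a4 and Plac8, or Plac8 and Ccr2. Which gene led depended on the library. S100a9 was the highest neutrophil gene in Vehicle 1 to Vehicle 4 and GW2580 5, and Ngp in Vehicle 5 and GW2580 1 to GW2580 4.

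S100a8 and S100a9 encode the subunits of calprotectin, a calcium-binding and metal-binding protein that makes up much of the neutrophil cytosol. They lie 22.6 kb apart on mouse chromosome 3 (GRCm38), S100a8 at chr3:90669071-90670034 and S100a9 at chr3:90692630-90695721. S100a8 was at 4273, 805, 438, 306 and 26.6 CPM in Vehicle 1 to Vehicle 5, and at 268, 956, 43.3, 52.0 and 1395 CPM in GW2580 1 to GW2580 5. S100a9 was at 7991, 1582, 701, 521 and 33.9 CPM in the Vehicle libraries and at 407, 1688, 65.6, 81.9 and 2139 CPM in the GW2580 libraries. Vehicle 1 was highest and Vehicle 5 lowest for both genes, so the whole range of each lay inside the Vehicle group, 160-fold for S100a8 and 236-fold for S100a9. Between the groups S100a8 had a log2 fold change of -1.11 ± 1.11 (SE, edgeR p = 0.333, adjusted p = 0.647, exact permutation p = 0.651) and S100a9 one of -1.31 ± 1.15 (p = 0.276, adjusted p = 0.600, permutation p = 0.619), both less than the spread between mice. The ratio of the pair in CPM per kb moved little, from 0.681 to 1.05 over all libraries.

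**Figure D2:**
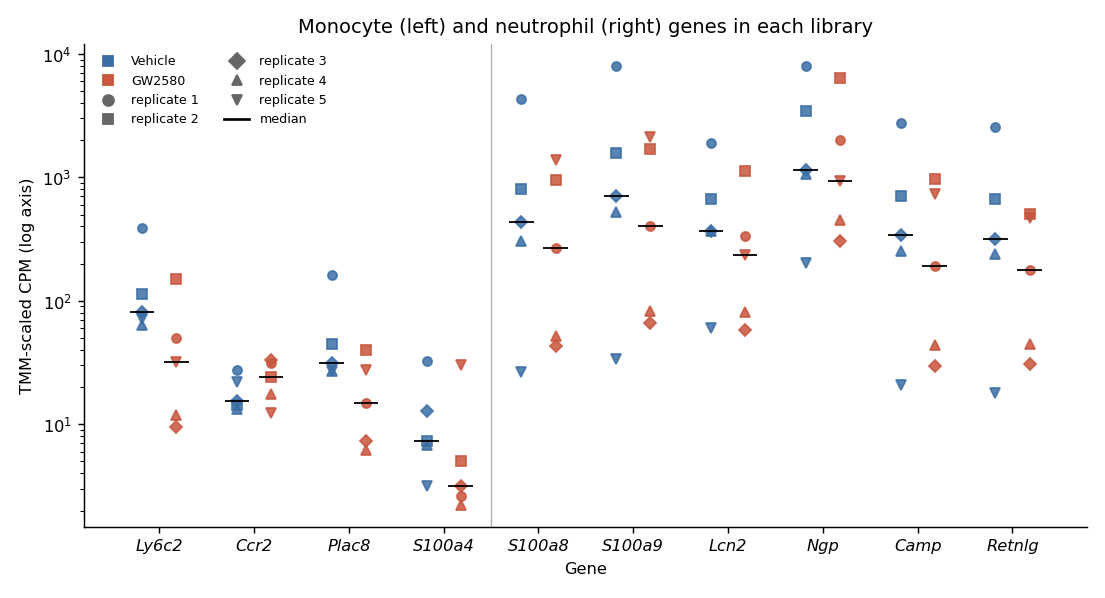
TMM-scaled CPM (log axis) of the 4 monocyte genes (left of the line) and the 6 neutrophil genes (right) in each library, Vehicle in blue and GW2580 in red, 1 symbol per replicate number, black bars at the group medians. Vehicle 1 (blue circles) is highest for 9 of the 10 genes, all except Ccr2, and the groups overlap for every gene.

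Camp encodes the cathelicidin precursor, an antimicrobial peptide of secondary granules, and lies at chr9:109847377-109849456. It was at 2779, 710, 339, 254 and 21.0 CPM in the Vehicle libraries and at 192, 971, 29.9, 43.7 and 740 CPM in the GW2580 libraries. Retnlg, at chr16:48872608-48874498, encodes a secreted resistin-like protein of neutrophils. It was at 2570, 663, 320, 239 and 18 CPM in the Vehicle libraries and at 177, 509, 30.9, 44.7 and 467 CPM in the GW2580 libraries. The libraries fell in nearly the order seen for S100a8, with Vehicle 1 high, Vehicle 5, GW2580 3 and GW2580 4 low, and GW2580 2 and GW2580 5 near Vehicle 2. The log2 fold changes were -1.05 ± 1.07 for Camp (SE, edgeR p = 0.340, adjusted p = 0.652, exact permutation p = 0.611) and -1.63 ± 1.01 for Retnlg (p = 0.127, adjusted p = 0.452, permutation p = 0.5).

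Ngp encodes neutrophilic granule protein, a cystatin-related protein of secondary granules, and Lcn2 encodes lipocalin 2, which binds bacterial siderophores. They lie at chr9:110419808-110423012 and chr2:32384637-32387739. Ngp was at 7959, 3421, 1154, 1068 and 204 CPM in the Vehicle libraries and at 1995, 6393, 306, 450 and 938 CPM in the GW2580 libraries. Lcn2 was at 1905, 664, 369, 369 and 60.3 CPM in the Vehicle libraries and at 334, 1130, 58.5, 80.6 and 234 CPM in the GW2580 libraries. Both were high in Vehicle 1 and GW2580 2, and here GW2580 5 was below GW2580 1, the reverse of the order for S100a8, S100a9, Camp and Retnlg. The log2 fold changes were -0.45 ± 0.92 for Ngp (SE, edgeR p = 0.631, adjusted p = 0.839, exact permutation p = 0.738) and -0.87 ± 0.86 for Lcn2 (p = 0.324, adjusted p = 0.640, permutation p = 0.413).

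Ly6c2 encodes part of the Ly6C surface antigen that defines classical monocytes, and lies at chr15:75108161-75112066. It was at 391, 114, 81.3, 63.7 and 71.8 CPM in the Vehicle libraries and at 50.1, 151, 9.45, 11.8 and 32.2 CPM in the GW2580 libraries. Of the GW2580 libraries, 4 of 5 were below every Vehicle library, and GW2580 2 was above 4 of the 5 Vehicle libraries. The log2 fold change was -1.50 ± 0.74 (SE, edgeR p = 0.0612, adjusted p = 0.357, exact permutation p = 0.0794), just outside the threshold. The call depended on the fit: Ly6c2 passed with sex as a covariate (-1.74), with DESeq2 (-1.53) and without GW2580 2 (-2.48), while without Vehicle 1 it was at -0.71 and did not pass. Of 100-base windows of Ly6c2 transcripts, 5.81% occur in Ly6c1, its paralog in endothelial cells, which was at 1.44 to 7.70 CPM in the 10 libraries.

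Plac8 encodes a small cysteine-rich protein abundant in monocytes and in granulocytes, and lies at chr5:100551589-100572253. It was at 161, 44.4, 31.6, 26.8 and 27.2 CPM in the Vehicle libraries and at 14.7, 40.1, 7.28, 6.20 and 27.4 CPM in the GW2580 libraries. GW2580 1, GW2580 3 and GW2580 4 were below every Vehicle library, and the other GW2580 libraries lay within the Vehicle range. Its log2 fold change was -1.60 ± 0.62 (SE, edgeR p = 0.0225, adjusted p = 0.283, exact permutation p = 0.0714), which was past the study's threshold of a fold change over 2 with an unadjusted p under 0.05. It no longer passed without Vehicle 1 (log2 fold change -0.77), GW2580 1 (-1.52), GW2580 3 (-1.39) or GW2580 4 (-1.37).

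Ccr2 encodes the chemokine receptor that brings classical monocytes out of the marrow and into tissue, and lies at chr9:124101918-124109140. It was at 27.3, 14.2, 15.5, 13.2 and 21.9 CPM in the Vehicle libraries and at 31.4, 24.2, 33.2, 17.7 and 12.3 CPM in the GW2580 libraries. The groups overlapped, and the whole range was 2.71-fold, the narrowest of the 10 genes. The log2 fold change was 0.37 ± 0.34 (SE, edgeR p = 0.300, adjusted p = 0.622, exact permutation p = 0.333), the only positive one.

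S100a4, at chr3:90603770-90606045, encodes a calcium-binding protein of motile cells, monocytes among them. It was at 32.4, 7.28, 12.7, 6.83 and 3.15 CPM in the Vehicle libraries and at 2.62, 5.01, 3.17, 2.22 and 30.2 CPM in the GW2580 libraries. Vehicle 1 and GW2580 5 were high in their groups, and the other libraries lay at 12.7 CPM or below. The log2 fold change was -0.53 ± 0.76 (SE, edgeR p = 0.495, adjusted p = 0.759, exact permutation p = 0.317). Without GW2580 5 it was -2.03 and past the threshold, and without Vehicle 1 it was 0.21 and not past it. Of the 100-base windows of S100a4 transcripts, 41.9% also occur in Gm42674 in the GENCODE set, while the neutrophil genes shared no window with another gene. The effect of this on the counts was not tested.

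Taking the 10 genes as a list, 1 was called, Plac8, against 10.7% of all genes tested (3046 of 28419), a share near the background. In the lower direction alone it was the same gene against 6.7% of all genes, and none was called higher against 4.01%. At an unadjusted p under 0.05 the edgeR test also gave 1 of the 10 genes, while DESeq2 called 2, Ly6c2 and Plac8, against 11.7% of the 27592 genes to which it gave a p. No gene had Vehicle and GW2580 libraries that did not overlap, against 3.03% of all genes. Across all genes the edgeR test gave 0 with an adjusted p under 0.05 (4186 at an unadjusted p under 0.05), and DESeq2 gave 177.

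The median log2 fold change was -1.02 over the 4 monocyte genes and -1.08 over the 6 neutrophil genes, against -0.03 over all genes tested. All 6 neutrophil genes and 3 of the 4 monocyte genes had a fold change below 0, as did 51.6% of all genes. So did the marker genes of some other cells: 7 of 7 astrocyte genes (median -1.54), 6 of 6 oligodendrocyte genes (-1.94), 6 of 6 erythroid genes (-1.17) and 6 of 7 neuron genes (-1.12). The summed CPM of these lists was highest in Vehicle 2 (oligodendrocyte, neuron) or Vehicle 5 (astrocyte, erythroid). Group medians of the sums were higher with GW2580 for oligodendrocyte (269 with Vehicle, 466 with GW2580) and erythroid genes (102 and 231). They were slightly lower for astrocyte (199 and 177) and neuron genes (65.7 and 63.4). Other lists went the other way or were split. Above 0 were 9 of 10 microglia genes (median 0.51), 7 of 10 secondary and tertiary granule genes (0.48) and 4 of 6 dendritic cell genes (0.23). The granule list leaves out Lcn2, Ngp and Camp, which are among the 10 genes and were below 0. The border macrophage list had 4 of 8 above 0 (0.18), and the endothelial median was -0.12. For the 10 genes, most of the lower fold changes rested on Vehicle 1. Without it the neutrophil median was 0.27 and the monocyte median -0.25, and S100a8 (0.46), S100a9 (0.30), Ngp (0.45), Camp (0.25) and S100a4 (0.21) had positive log2 fold changes, with Lcn2 near 0 and Retnlg at -0.34. Without GW2580 2, the highest GW2580 library for Ngp, Lcn2, Camp, Retnlg, Ly6c2 and Plac8, the neutrophil median was -1.69 and Lcn2 passed the threshold (-1.93).

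**Figure D3:**
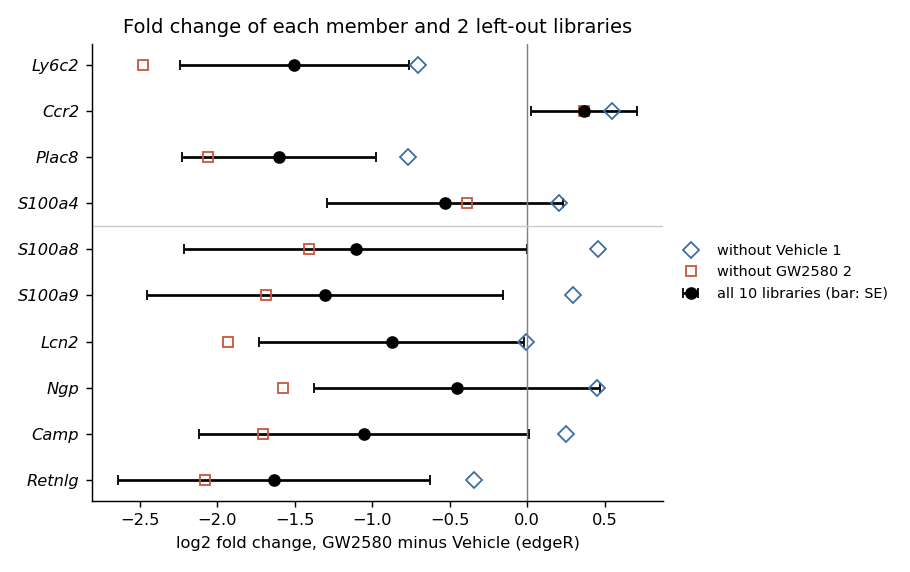
The log2 fold change of each gene, GW2580 minus Vehicle, from edgeR with all 10 libraries (black, bars are SE) and after leaving out Vehicle 1 (blue diamonds) or GW2580 2 (red squares). Leaving out Vehicle 1 moves 5 of the genes from below to above 0, and leaving out GW2580 2 moves Ngp from -0.45 to -1.58.

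Vehicle 1 and GW2580 2 were from male mice, and GW2580 5, the highest GW2580 library for S100a8, S100a9 and S100a4, was from a female mouse. In male mice S100a8 averaged 2539 CPM in the Vehicle libraries and 612 CPM in the GW2580 libraries (n = 2 each), and in female mice 257 and 497 CPM (n = 3 each). Ngp averaged 5690 and 4194 CPM in males and 809 and 565 CPM in females. With sex as a covariate the neutrophil median was -0.43, with S100a8 at -0.20, S100a9 at -0.30, Camp at -0.38 and Retnlg at -0.93, and the monocyte median was -0.95. In the fit with a sex-by-treatment term none of the 10 genes had p under 0.05. The smallest was for S100a4 (difference on the log2 scale -3.03 ± 1.45, SE, an unadjusted edgeR p of 0.0578, adjusted p = 0.9999), and S100a8 was at -3.0 ± 2.06 (adjusted p = 0.9999).

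Over the 10 libraries the neutrophil genes moved together. Pearson's r of log2 CPM was 0.88 to 1.00 over the 15 pairs of neutrophil genes, and 0.99 to 1.00 among S100a8, S100a9, Camp and Retnlg. Lcn2 and Ngp were closest to each other (r = 0.98). These values are a description over 10 libraries that share their depth and their preparation, and they stayed between 0.88 and 1.00 after the group means were removed. The monocyte genes did not form such a block: r ran from -0.39 to 0.95 over their 6 pairs. Ly6c2 and Plac8 were alike (r = 0.95), and both followed the neutrophil genes (0.71 to 0.85 and 0.72 to 0.82), whereas Ccr2 did not (-0.22 to 0.06).

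**Figure D4:**
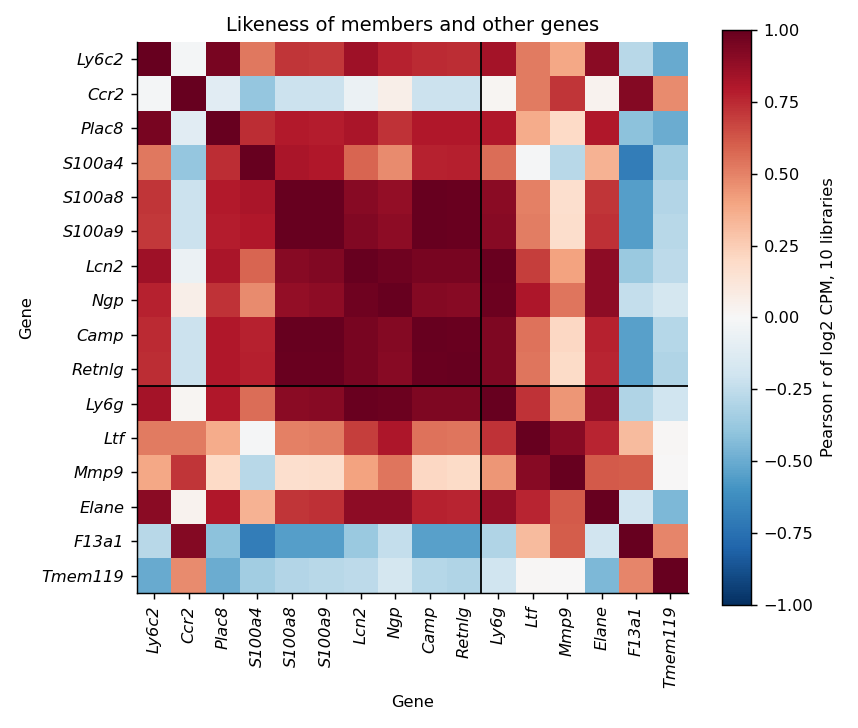
Pearson's r of log2 CPM over the 10 libraries, from -1 (blue) to 1 (red), for the 10 genes (above and left of the black lines) and 6 other genes. S100a8, S100a9, Lcn2, Ngp, Camp and Retnlg form 1 block with Ly6g, and Ccr2 is near F13a1 (0.92) rather than near Ly6c2 (-0.02).

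The genes outside the list that were most like each one, of 25909 with a mean of at least 1 CPM, were mostly other neutrophil genes for the neutrophil members. For S100a8 and S100a9 they were Wfdc21, Slpi and Cstdc4 (r = 0.97 to 1.00), for Camp Wfdc21, Slpi and Pglyrp1, and for Retnlg Slpi, Wfdc21 and Ifitm6 (0.98 to 0.99). For Lcn2 they were Ly6a2, Ly6g, the gene of the neutrophil surface antigen, and Pglyrp1 (0.98 to 1.00), and for Ngp Ms4a3, Mcemp1 and Krt83 (0.98 to 0.99). Ly6c2 was closest to Mgst1, Cdkn3 and H1f5 (0.95 to 0.97) and Plac8 to B230208H11Rik, Cdkn3 and Ifitm2 (0.95 to 0.98). Ccr2 was closest to Stom, Tiparp and G6pdx (0.93 to 0.95), and S100a4 to Gm16062, Rps27rt and Gm51710 (0.96). Among the monocyte genes of the lists, Ccr2 was close to F13a1, the coagulation factor XIII A gene (r = 0.92), which was picked out after its values were seen.

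The stretches just upstream of the 6 neutrophil genes are given because these genes moved together across libraries. Each is the 250 bases before the RefSeq transcript start (GRCm38.p6), written 5′ to 3′ on the strand of the gene. Capitals mark matches to TTNNGNAA on either strand, the letters of a C/EBP site, the binding site of a family of factors known for granulocyte maturation.
S100a8 (chr3:90668821-90669070, plus strand): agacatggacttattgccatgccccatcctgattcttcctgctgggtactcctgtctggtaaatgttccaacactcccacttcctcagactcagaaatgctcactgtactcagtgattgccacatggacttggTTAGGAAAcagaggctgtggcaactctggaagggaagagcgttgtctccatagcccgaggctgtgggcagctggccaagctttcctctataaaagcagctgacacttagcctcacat
S100a9 (chr3:90695722-90695971, minus strand): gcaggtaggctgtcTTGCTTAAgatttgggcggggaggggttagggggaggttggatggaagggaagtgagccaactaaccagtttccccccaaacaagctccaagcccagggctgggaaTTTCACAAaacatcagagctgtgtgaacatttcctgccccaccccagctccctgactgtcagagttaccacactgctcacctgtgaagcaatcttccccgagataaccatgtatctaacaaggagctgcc
Camp (chr9:109849457-109849706, minus strand): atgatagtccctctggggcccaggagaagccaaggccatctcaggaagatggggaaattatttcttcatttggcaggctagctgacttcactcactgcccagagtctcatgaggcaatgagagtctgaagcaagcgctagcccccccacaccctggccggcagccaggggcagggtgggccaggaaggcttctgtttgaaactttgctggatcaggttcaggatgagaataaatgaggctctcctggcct
Retnlg (chr16:48872358-48872607, plus strand): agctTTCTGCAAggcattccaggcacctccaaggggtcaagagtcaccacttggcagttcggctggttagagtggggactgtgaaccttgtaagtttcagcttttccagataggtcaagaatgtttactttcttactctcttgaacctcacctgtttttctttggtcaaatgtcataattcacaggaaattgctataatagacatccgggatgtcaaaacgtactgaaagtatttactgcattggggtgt
Ngp (chr9:110419558-110419807, plus strand): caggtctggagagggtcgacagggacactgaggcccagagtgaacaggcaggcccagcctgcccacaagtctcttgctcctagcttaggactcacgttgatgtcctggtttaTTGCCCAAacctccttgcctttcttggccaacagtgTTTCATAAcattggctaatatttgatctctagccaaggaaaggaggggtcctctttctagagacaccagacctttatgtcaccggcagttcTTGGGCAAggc
Lcn2 (chr2:32387740-32387989, minus strand): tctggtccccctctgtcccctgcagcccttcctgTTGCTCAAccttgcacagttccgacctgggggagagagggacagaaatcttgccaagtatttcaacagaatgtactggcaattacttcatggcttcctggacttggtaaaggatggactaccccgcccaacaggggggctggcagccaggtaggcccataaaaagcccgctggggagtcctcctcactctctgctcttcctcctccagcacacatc

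The C/EBP letters occurred in the windows of 8 of the 10 genes, all except S100a4 and Camp, and in 36.8% of the 32851 windows of the same length in the RefSeq table. The first count is per gene and the second per window, so they are not fully alike. Ly6c2 and Plac8 had 2 windows each, all with a match. For these genes and Ccr2 the transcript start lay inside the bounds of the gene. Ngp had 3 matches and S100a9 had 2. Camp, which moved with S100a8 at r = 0.99, had none in this window. The letters GAGGAAG, found in 10.6% of all windows, occurred for Ly6c2, S100a8 and Lcn2, and TATAAA, found in 12.4%, for S100a4 and S100a8. A match describes the letters only, and no binding was measured.

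Other genes of neutrophils were grouped by the stage that uses them. Of the 6 primary granule genes, 0 were called, with 4 fold changes below 0 and 2 above, and a median log2 fold change of -0.50. Elane, the neutrophil elastase gene, was at 409, 147, 30.1, 22.9 and 18.8 CPM in the Vehicle libraries and at 44.5, 355, 1.78, 12.7 and 11.4 CPM in the GW2580 libraries. Mpo, the myeloperoxidase gene, was at 222, 74.1, 14.2, 9.36 and 98.5 CPM in the Vehicle libraries and at 153, 455, 3.5, 44 and 7.45 CPM in the GW2580 libraries. For both genes Vehicle 1 and GW2580 2 were the highest of their groups, and GW2580 5, where S100a8 was at 1395 CPM, was low.

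Of the 10 secondary and tertiary granule genes, 1 was called, Olfm4, which was higher with GW2580 (log2 fold change 1.23 ± 0.51, SE, edgeR p = 0.0299, adjusted p = 0.302, exact permutation p = 0.135), and the median was 0.48. This list leaves out the secondary granule genes already among the 10 genes described. These were Lcn2, Ngp and Camp, with log2 fold changes of -0.875, -0.453 and -1.053, so the median depends on that choice. Ltf, the lactoferrin gene, was at 1629, 567, 207, 202 and 153 CPM in the Vehicle libraries and at 1607, 2357, 227, 387 and 172 CPM in the GW2580 libraries. Its log2 fold change was 0.79 ± 0.82 (SE, edgeR p = 0.352, adjusted p = 0.662, exact permutation p = 0.524). Of the 20 mature neutrophil genes tested, 15 fold changes lay below 0 and the median was -0.37. The 1 gene called, Stfa2l1, was lower (log2 fold change -1.99 ± 0.88, SE, edgeR p = 0.0399, adjusted p = 0.319, exact permutation p = 0.492). It was at 9.02 CPM in Vehicle 1 and at only 0.225 to 2.17 CPM in the other libraries.

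The neutrophil genes did not keep a fixed ratio to each other. Ltf stood at 0.381, 0.704, 0.472, 0.660 and 5.73 times the CPM of S100a8 in Vehicle 1 to Vehicle 5, and at 6.00, 2.46, 5.24, 7.45 and 0.123 times in GW2580 1 to GW2580 5. Per kb, S100a8 was at 1.59, 0.697, 1.13, 0.847 and 0.386 times the level of Ngp with Vehicle and at 0.398, 0.443, 0.419, 0.342 and 4.4 times with GW2580. Vehicle 5 lay among the GW2580 libraries in both ratios, and GW2580 5 lay beyond the Vehicle libraries on the other side. The mean log2 CPM of the 69 ribosomal protein genes moved with these ratios, at 6.71, 6.63, 6.50, 6.30 and 5.27 with Vehicle and 4.11, 5.47, 5.18, 3.55 and 7.13 with GW2580. Its Pearson's r with the log2 ratio of Ltf to S100a8 was -0.92 (Spearman's rho -0.95, n = 10 libraries), and -0.92 after removing the group means. Among the 10 genes its r was highest for S100a4 (0.87) and lowest for Ccr2 (-0.50). Its part in the ratios was not tested.

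The fold change of a neutrophil gene also went with its length, a pattern looked for after the values were seen. Over 41 neutrophil genes, the members and the 3 granule and maturation lists without Csf3r, r between log2 exon length and log2 fold change was 0.69. This is across genes, which are not independent replicates. Csf3r (5848 bases, log2 fold change 0.80) was counted in the mature neutrophil list above but not here. It was highest in GW2580 3, as was the sum of the microglia genes. The 15 genes under 1000 bases had a median log2 fold change of -1.09 and the 26 longer ones -0.06. S100a8 (392 bases), S100a9 (524), Camp (599) and Retnlg (608) were at -1.05 to -1.63, Lcn2 (853) at -0.87 and Ngp (1161) at -0.45. Over all 28419 genes tested the same r was -0.02, with medians of 0.08 and -0.04. With the length trend of each library over all genes removed, an alternative chosen after seeing the data, the neutrophil median was -1.24, against -1.08 without this step, and Plac8 was still the 1 gene called.

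**Figure D5:**
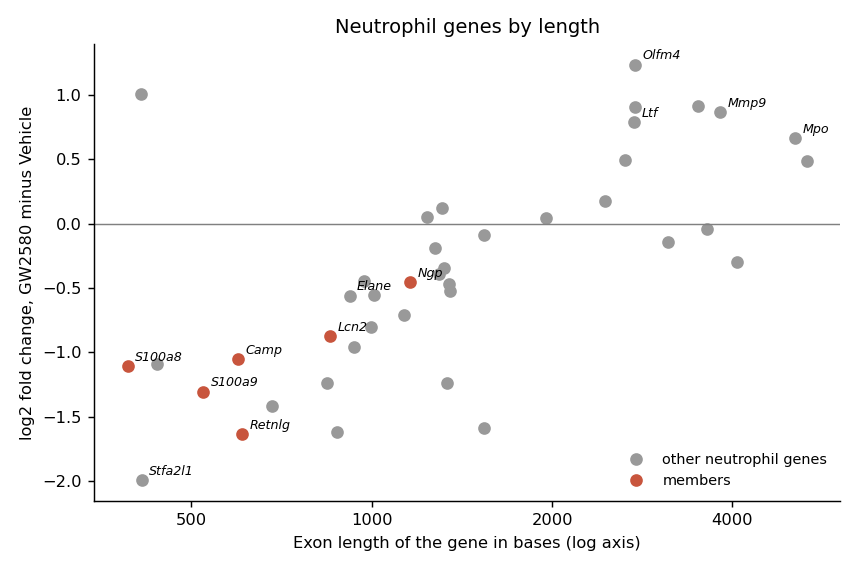
The log2 fold change, GW2580 minus Vehicle, against exon length in bases (log axis) of 41 neutrophil genes, the 6 described here in red. The 6 genes, of 392 to 1161 bases, all lie below 0, while Ltf, Mmp9, Mpo and Olfm4, which are longer, lie above 0.

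Of 18 other monocyte genes tested, 1 was called, 11 fold changes lay below 0, 7 above, and the median was -0.14. The called gene was Ms4a4c, a membrane protein of the MS4A family, at 34.6, 18.3, 17.8, 15.0 and 16.1 CPM in the Vehicle libraries and at 9.5, 11.8, 9.67, 3.88 and 10.5 CPM in the GW2580 libraries. Every GW2580 library was below every Vehicle library, and the log2 fold change was -1.17 ± 0.35 (SE, edgeR p = 0.00527, adjusted p = 0.280, exact permutation p = 0.00794, the smallest that 5 against 5 allows). Chil3, which monocytes and neutrophils share, was at 440 ± 509 CPM in the Vehicle libraries and 415 ± 434 CPM in the GW2580 libraries (SD, n = 5 each). Of 5 patrolling monocyte genes tested, 1 was called, Ace, but Vehicle 5 alone was at 1084 CPM and the other 9 libraries were at 6.49 to 14.2 CPM.

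Of the lymphocyte genes tested, 8 of 8 T cell and 6 of 7 NK cell genes had fold changes below 0. Of 7 NK cell genes 3 were called lower (Nkg7, Gzma and Klre1), and of 8 T cell genes 3 (Cd3e, Cd8a and Trbc2), against 6.7% of all genes called lower, with none called higher in either list. Vehicle 5 was the highest library for each of these T cell genes. Cd3e was at 43.2 CPM there and at 0.632 to 3.22 CPM in the other libraries, and Trbc2 was at 29.0 CPM there and at 0.308 to 4.69 CPM in the others. Gzma, a granzyme of NK and T cells, was at 12.1 ± 3.54 CPM in the Vehicle libraries and 3.97 ± 2.85 CPM in the GW2580 libraries (SD, n = 5 each). The summed T cell, B cell and NK cell genes were each highest in Vehicle 5, the library with the lowest S100a8. Among the S100 paralogs, S100a6 (-1.45 ± 0.88, SE, edgeR p = 0.122, adjusted p = 0.447, exact permutation p = 0.198), S100a10 (-1.02 ± 0.55, p = 0.0825, adjusted p = 0.390, permutation p = 0.0714) and S100a11 (-1.48 ± 0.84, p = 0.0974, adjusted p = 0.411, permutation p = 0.198) had log2 fold changes below 0 that did not pass the threshold.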

How the data were processed

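RNA was sequenced from CD11b-selected microglia of 10 mice, 5 per group, 1 library each. The authors trimmed the reads, used STAR for alignment to GRCm38, and deposited raw counts per RefSeq gene made without regard to strand by featureCounts 1.6.3 (per the file headers). Groups, sex and replicate numbers came from the labels. A gene entered the test if 3 or more libraries exceeded 1 CPM. Treatment was the only term of a quasi-likelihood F test in edgeR 4.0.16 (R 4.3.3) with TMM scaling. The call followed the study: more than a 2-fold change together with an unadjusted p below 0.05, with Benjamini-Hochberg adjusted p-values over all genes beside it. The standard error was the log2 fold change divided by the square root of F. Two-sided exact permutation tests used all 252 ways to assign 5 libraries to a group, on mean log2 CPM (prior count 2). DESeq2 1.42.0 and limma 3.58.1 were alternatives.

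The 10 genes and all lists were chosen with earlier results of these data known. Other genes were named where called in a blood cell list, where among the 4 most abundant of a list, as paralogs, or as the 3 most like each of the 10 genes. Symbols, coordinates and promoters came from RefSeq GRCm38.p6 (46029 of 46152 genes matched). Shared windows were counted in GENCODE transcripts. Of the list genes, 3 symbols had no match and were left out. Of the counting records, 15.1 to 26.1% aligned to more than 1 place and 38.4 to 60.1% lay on no exon, and both classes stayed out of library sizes. Replicate numbers were not treated as pairs in the main fit. Same-numbered libraries had correlations from -0.39 to 0.14, and differently numbered ones from -0.31 to 0.34. These values cannot tell whether same-numbered mice were handled together. The libraries carry no molecular identifiers, so counts are not numbers of molecules, and each test used the spread between mice. Some results on other genes of the lists are not reported here.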

Additional observations from a re-analysis of the deposited data

Results flagged for a closer look

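In 10 of the 20 gene and group combinations, 1 library lay farther from the other 4 than Dixon's criterion for 5 values allows. Chance passes this criterion in about 1 of 20 for normally distributed values. It was applied to CPM without a log scale, where values are skewed upward, so that rate does not hold here. The number of flags is therefore a description and no measure of an excess. Vehicle 1 was that library for Ly6c2 (391 CPM, the next Vehicle library at 114), Plac8 (161, next 44.4), S100a8 (4273, next 805), S100a9 (7991, next 1582), Camp (2779, next 710) and Retnlg (2570, next 663). GW2580 2 was that library for Ly6c2 (151 CPM, the next GW2580 library at 50.1), Lcn2 (1130, next 334) and Ngp (6393, next 1995). GW2580 5 was that library for S100a4 (30.2 CPM, next 5.01). The genes move together, so these flags are not independent of each other.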

How the results depend on the processing

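The number of genes called, 1 of 10 with all libraries, was 2 with no filter on low counts, DESeq2, edgeR's likelihood ratio test, limma-voom, sex as a covariate, the replicate block, and without Vehicle 1 and GW2580 2 together, each time Ly6c2 and Plac8. It was 3 without Vehicle 2 and Vehicle 5, with Retnlg added, and 0 to 3 when 1 library at a time was left out. The share of all genes called was 10.7% in the main fit and 11.7% with DESeq2. For the other settings that share is not given, so their counts cannot be set against a background. In the replicate block fit Ly6c2 was past the threshold at -1.91, and the block changed no other call. When 1 library was left out, the monocyte median ranged from -1.64 to -0.25 and the neutrophil median from -1.69 to 0.27. Without Vehicle 1, S100a4 (0.21), S100a8 (0.46), S100a9 (0.30), Ngp (0.45) and Camp (0.25) reversed, and without Vehicle 1 and GW2580 2 together S100a4 (0.36) and S100a8 (0.16) did. With 1 library left out, the range was -2.03 to 0.21 for S100a4, -1.90 to 0.46 for S100a8, -2.03 to 0.30 for S100a9, -1.58 to 0.45 for Ngp, -1.70 to 0.25 for Camp, -1.93 to -0.005 for Lcn2, -2.08 to -0.34 for Retnlg and -2.48 to -0.71 for Ly6c2, with Vehicle 1 left out at each upper end. Without Vehicle 5, Retnlg was called at -1.95. Without Vehicle 1 and GW2580 2 together, the medians were -0.43 (monocyte) and -0.53 (neutrophil). The cause was not tested. Of 220 fold changes recomputed, 194 kept their direction and side of the threshold, 4 lost the call, 15 gained it and 7 reversed. Scaling by library size alone shifted the median of all genes by 0.26 on the log2 scale and left Plac8 as the only call. Prior counts of 0.5 and 5 changed no direction and no side of the threshold in the permutation tests. Removing the length trend of each library, and leaving out Vehicle 1 with GW2580 2, were chosen after seeing the data.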
